A study of Mus musculus with 12 samples.

Results

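The VEGF family and endothelial genes described here are 10 genes: the ligands Vegfa, Vegfb, Vegfc and Pgf, the receptors Flt1 (VEGFR-1), Kdr (VEGFR-2) and Tek (the TIE2 receptor), the angiopoietin Angpt2, and the endothelial junction genes Pecam1 (CD31) and Cdh5 (VE-cadherin). They were taken from the count table by their gene symbols, whatever their values, and are 10 of the 23282 genes listed. All 10 passed the filter on low counts and were among the 13464 genes tested. RNA was read from 12 subcutaneous MC38 tumors, 3 in each of 4 groups. MC38 cells derive from a mouse colon carcinoma, and the hosts were female C57BL/6 mice, labelled WT and 6 weeks old, with tumors taken on day 19. Con mice received vehicle saline and an IgG2a antibody, and SFIH mice received the IgG2a antibody and 50 mg/kg daily of a sesquiterpene lactone-rich fraction of Inula helenium. PD mice received injections of 200 μg of an antibody against PD-1, the inhibitory receptor on T cells, and Comb mice received both treatments. All groups carried the same cell line and were injected intraperitoneally. The labels call the material tumor cells, but RNA was extracted from whole tumor tissue, and markers of endothelium, macrophages and other host cells were read in every tumor.

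VEGF-A binds FLT1 and KDR on endothelial cells and drives the sprouting of new vessels, and hypoxia is a known inducer of its gene. VEGF-B and PlGF bind FLT1, VEGF-C acts mainly on lymphatic vessels, and angiopoietin-2 modulates TIE2 and loosens the contacts between endothelial cells and their supporting pericytes. CD31 and VE-cadherin sit at endothelial junctions, and CD31 is also carried by platelets and by many leukocytes, macrophages among them.

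Total counts were between 7870741 and 12261032 per tumor. Levels of the 10 genes are given as CPM, the share of a library's counts rescaled to a common total, after scaling by TMM, a factor that corrects each library for its composition. Sums over marker lists are CPM without TMM. The factors ran from 0.76 in Comb replicate 3 to 1.12. Comb replicate 3 stood apart from the other tumors: a chi-square of its counts against Comb replicate 1 averaged 431 per gene, where counting noise alone gives about 1 and pairs within the other groups gave 12.3 to 66.0. Marker genes of skeletal muscle summed to 6813 CPM in this tumor and to 15.6 and 1028 CPM in the other Comb tumors, against 18.5 to 25.2 CPM in Con. The main Comb results are therefore given with and without this tumor.

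The comparison of Comb with Con asked whether the combined treatment altered these genes. RNA from Vegfa was lower in all 3 Comb tumors than in every Con, SFIH and PD tumor, and RNA from Pecam1 was highest in 2 of the 3 Comb tumors. Cdh5, the other junction gene, had nearly the same mean in Con and Comb. No member passed an adjusted p of 0.05 in any of 8 comparisons with edgeR's quasi-likelihood test and Benjamini-Hochberg adjustment, and neither did any other gene (0% of 13464 genes). In Comb against Con the same test gave an unadjusted p under 0.05 for 4 of the 10 members, Vegfa, Vegfb, Tek and Pecam1, beside 25.3% of all genes tested. Tek is included here and in later counts, but it passed the filter on low counts only through tumors in which it was high. DESeq2 called 3 members in this comparison, Vegfa, Pecam1 and Tek (14.8% of all genes), and limma-voom with quality weights called 3, Vegfa, Pecam1 and Pgf (20.2% of all genes). The limma-voom weights were 0.286, 1.97 and 0.0596 for Comb replicates 1 to 3. Its Comb values here and below thus rest mostly on Comb replicate 2.

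**Figure D1:**
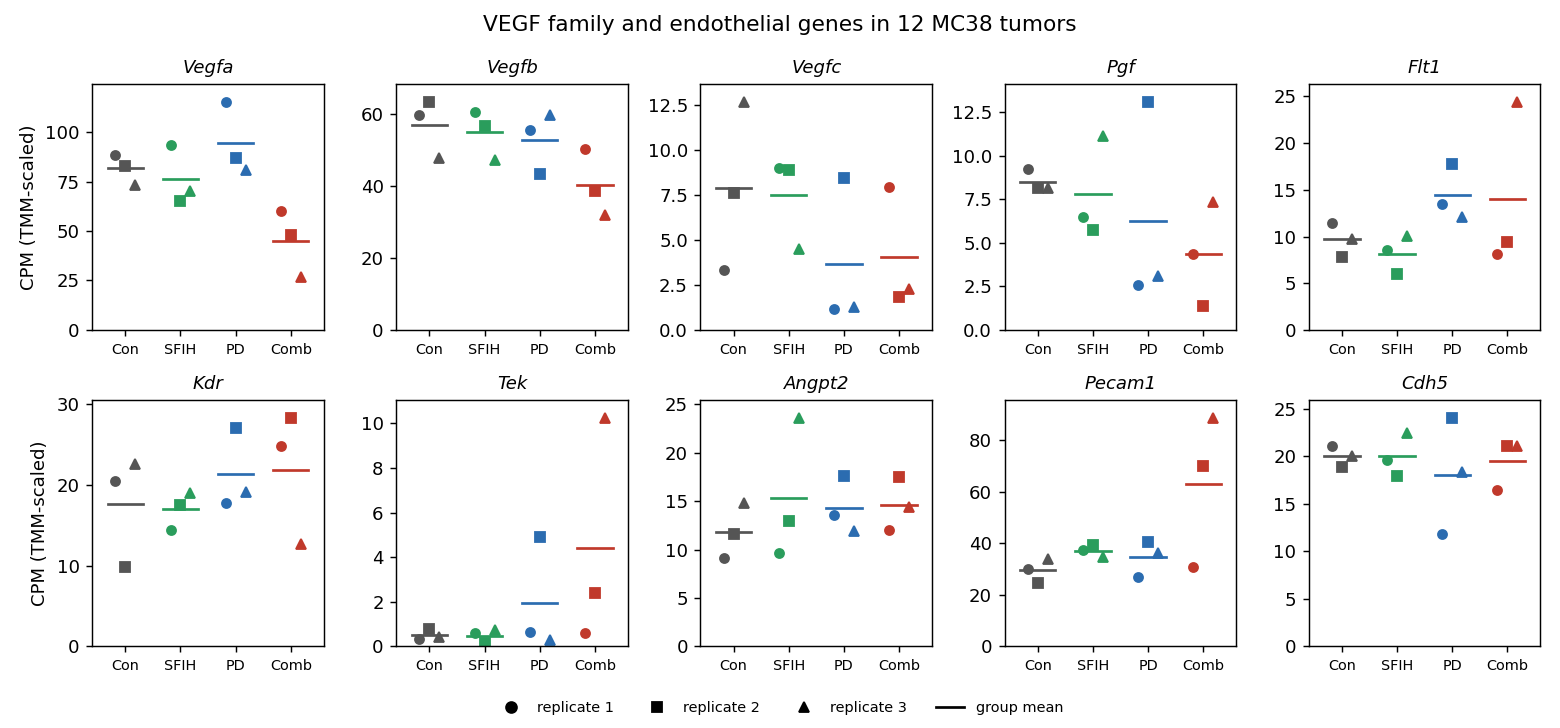
TMM-scaled CPM (vertical axis, from 0 in each panel) of the 10 genes in the 12 tumors, by group; symbols mark the replicate and lines the group mean. The 3 Comb tumors lie between 26.9 and 60.3 for Vegfa, under every other tumor, while the Cdh5 values of the Comb tumors, 16.5 to 21.1, overlap with those of every other group.

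The start regions of Vegfa, Vegfb and Tek are shown because these are the members with an unadjusted p under 0.05 in Comb against Con for which a sequence was matched. They are the 250 bases before an annotated start in RefSeq on GRCm38.p6, read 5′ to 3′ on the strand of the gene, at chr17:46032378-46032627 on the minus strand for Vegfa, chr19:6987652-6987901 on the minus strand for Vegfb and chr4:94739039-94739288 on the plus strand for Tek. Capitals mark, on either strand, the hypoxia response cores ACGTG and GCGTG, the ETS core GGAAGT and the Sp1 core GGGCGG.
Vegfa: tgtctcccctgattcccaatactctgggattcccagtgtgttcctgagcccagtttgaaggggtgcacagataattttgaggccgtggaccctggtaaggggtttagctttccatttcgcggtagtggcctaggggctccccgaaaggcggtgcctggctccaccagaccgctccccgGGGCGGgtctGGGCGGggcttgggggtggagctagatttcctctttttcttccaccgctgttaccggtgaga
Vegfb: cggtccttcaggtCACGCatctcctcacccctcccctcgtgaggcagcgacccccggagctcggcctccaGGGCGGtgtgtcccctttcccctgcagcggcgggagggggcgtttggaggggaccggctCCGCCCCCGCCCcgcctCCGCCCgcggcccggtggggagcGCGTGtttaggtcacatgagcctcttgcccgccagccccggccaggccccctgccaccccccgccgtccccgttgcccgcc
Tek: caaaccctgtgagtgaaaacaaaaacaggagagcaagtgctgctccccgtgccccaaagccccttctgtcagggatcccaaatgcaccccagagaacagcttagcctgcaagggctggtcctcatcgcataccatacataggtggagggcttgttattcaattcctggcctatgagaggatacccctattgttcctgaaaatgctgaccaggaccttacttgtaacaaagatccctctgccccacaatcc
The Vegfa stretch held 2 GGGCGG and none of the other 3 motifs. A start of Vegfa listed further downstream, with its 250 bases at chr17:46025164-46025413 on the minus strand, held 1 ACGTG, 1 GCGTG and 1 GGGCGG. This stretch lies within the gene, downstream of the first start, so its motifs need not be promoter elements. Their function was not tested. The Vegfb stretch held 2 GCGTG and 4 GGGCGG, and the Tek stretch held none of the motifs. Among all 32851 start regions of the same length, ACGTG was found in 16.6%, GCGTG in 28.2%, GGAAGT in 19.7% and GGGCGG in 32.7%. GC content was 59.2% for Vegfa, 76.4% for Vegfb and 51.2% for Tek, against a median of 52.4%. Start regions were matched for 7 of the 10 members, and Angpt2, Pecam1 and Cdh5 had no entry in the table.

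Vegfa was read at 88.6, 83.0 and 73.4 TMM-scaled CPM in Con replicates 1 to 3 and at 60.3, 47.8 and 26.9 in Comb. The SFIH tumors gave 93.5, 65.3 and 70.4, and the PD tumors gave 115, 86.9 and 81.0. The Comb tumors did not overlap with any other group, and Comb replicate 3 was the lowest. Vegfa was the 1 member of 10 that was lower without overlap against PD, beside 8.1% of all genes, and against SFIH, beside 8.56%. In CPM without TMM, 3 members were lower without overlap against SFIH, Vegfa, Pgf and Cdh5, beside 14.9% of all genes. The mean was 81.7 ± 7.71 for Con, 76.4 ± 15.0 for SFIH tumors, 94.4 ± 18.3 for PD tumors and 45.0 ± 16.9 for Comb (SD, n = 3). The edgeR log2 fold change of Vegfa in Comb against Con was -0.86 with an SE of 0.28, a 0.552-fold level, with an unadjusted p of 0.0102 and an adjusted p of 0.0951 that missed the threshold. Without Comb replicate 3 it was -0.59 with an edgeR adjusted p of 0.164, and without Comb replicate 1 it was -1.12 with 0.017, where 28.5% of all genes passed the threshold. Against PD the log2 fold change of Vegfa was -1.07 (SE 0.28, edgeR adjusted p = 0.243), and against SFIH it was -0.76 (SE 0.28, edgeR adjusted p = 0.180). Without Comb replicate 3 these values were -0.80 and -0.50.

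Neither single treatment gave a detectable difference in Vegfa. Its log2 fold change was -0.10 for SFIH against Con, with a 95% interval from -0.70 to 0.51, and 0.21 for PD against Con, with an interval from -0.40 to 0.81. These intervals leave room for changes in either direction. The interaction term, which asks whether the effect of SFIH on Vegfa differed with the antibody, was -0.97 (SE 0.39), with an unadjusted p of 0.0301 and an edgeR adjusted p of 0.894, and it was -0.71 without Comb replicate 3. Vegfa was the 1 member of 10 with an unadjusted p under 0.05 for the interaction, beside 2.55% of all genes. In the 6 tumors with any SFIH against the 6 without, the mean log2(CPM + 1) of Vegfa was lower by 0.69 (exact permutation test, two-sided, p = 0.0411), and 5 of the 6 tumors lay under every tumor without SFIH. On the TMM scale the same exact test gave a difference of -0.61 and p = 0.026. For any SFIH, an exact p under 0.05 was found for 13.2% of all genes in CPM and 15.7% on the TMM scale, and for any anti-PD-1 for 24.6% and 19.5%. These tests were 70 on each of the 2 scales, and none of their p is adjusted. Other members with p under 0.05 in CPM were Cdh5, Pgf and Vegfc, lower with any anti-PD-1 (p = 0.0195, 0.0325 and 0.0368), and Pecam1, higher with any SFIH (p = 0.0498), all by the exact permutation test. On the TMM scale the exact test gave these 4 p of 0.524, 0.0866, 0.0563 and 0.0671. The edgeR value for the same contrast was -0.58 (adjusted p = 0.315), with 2 of 10 members, Vegfa and Pecam1, at an unadjusted p under 0.05 beside 14.5% of all genes. The genes whose levels were most alike Vegfa over the 12 tumors, by Spearman's rho on TMM-scaled levels among 10602 genes, were Smarcd1 (0.944), Ap1ar (0.916), Dnmt1 (0.916), Ncln (0.902) and Zfp36l2 (0.902). Smarcd1, Ap1ar and Dnmt1 stayed among the first 5 over the 11 tumors without Comb replicate 3.

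Vegfb, the ligand of FLT1 alone among the VEGF receptors, was read at 59.5, 63.2 and 47.7 TMM-scaled CPM in Con and at 50.0, 38.4 and 31.8 in Comb. The groups overlapped on this scale, and did not in CPM without TMM. The log2 fold change of Vegfb in Comb against Con was -0.50 (SE 0.21), with an unadjusted p of 0.0393 and an edgeR adjusted p of 0.175. The values were -0.40 against PD and -0.45 against SFIH. Without Comb replicate 3 the value against Con was -0.36. The ratio of Vegfa to Vegfb counts within a tumor, chosen after the values were seen, was 1.49, 1.31 and 1.54 for Con replicates 1 to 3 and 1.21, 1.24 and 0.848 for Comb. It was 1.55, 1.15 and 1.49 with SFIH alone and 2.08, 2.01 and 1.36 with the antibody alone. All 3 Comb tumors were under every Con and every PD tumor, for which the exact permutation test, two-sided, gave p = 0.1, the smallest that 3 tumors against 3 can reach. This ratio does not depend on library scaling.

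Pgf, the gene for PlGF, was read at 9.21, 8.13 and 8.12 TMM-scaled CPM in Con and at 4.37, 1.38 and 7.34 in Comb. The Comb tumors were under every Con tumor, with Comb replicate 3 the nearest to them. In PD the values were 2.56, 13.1 and 3.10, so that 1 PD tumor was the highest of all 12 and the other 2 were under every Con tumor. The log2 fold change of Pgf in Comb against Con was -0.96 (SE 0.66, edgeR adjusted p = 0.373) and -1.54 without Comb replicate 3. With limma-voom, which gave most weight to Comb replicate 2, the lowest tumor, it was -2.27, with an adjusted p of 0.0268. On the TMM scale, 2 of the 10 members, Vegfa and Pgf, were lower in Comb than in Con with no overlap, beside 13% of all genes. In CPM without TMM the same count was 4, with Vegfb and Cdh5 added, beside 22.2% of all genes. Vegfc, which acts on lymphatic endothelium, varied within every group, from 3.33 to 12.7 TMM-scaled CPM in Con and from 1.84 to 7.97 in Comb. Its log2 fold change came to -0.96 (SE 0.82, edgeR adjusted p = 0.460) in Comb against Con and -1.13 in PD against Con. Leaving out PD replicate 2 moved the PD value to -2.66, and leaving out Comb replicate 1 moved the Comb value to -1.92.

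**Figure D2:**
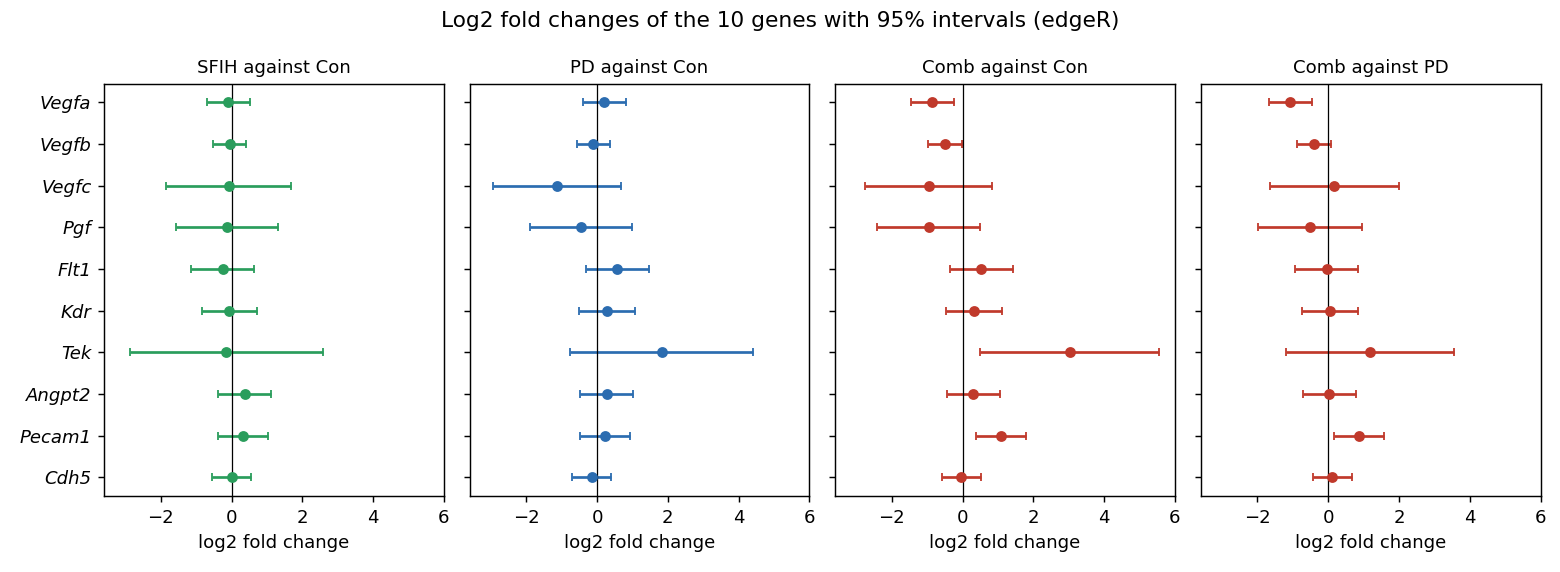
Log2 fold changes (horizontal axis) of the 10 genes in 4 comparisons, from 1 edgeR fit of the 12 tumors; points are estimates and bars 95% intervals. In Comb against Con the intervals of Vegfa, Vegfb, Tek and Pecam1 do not hold 0, and in SFIH against Con and PD against Con every interval holds 0.

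Neither VEGF receptor differed from Con beyond its error in Comb. Flt1, which binds VEGF-A without strong signaling, was read at 11.5, 7.83 and 9.73 TMM-scaled CPM in Con and at 13.5, 17.7 and 12.1 in PD. All 3 PD tumors were above every Con tumor, and Flt1 was the 1 member of 10 without overlap in PD against Con, beside 18.8% of all genes. Its log2 fold change there was 0.57 (SE 0.40, edgeR adjusted p = 0.9998). In Comb, Flt1 was read at 8.16, 9.44 and 24.4, so that 1 tumor, Comb replicate 3, carried the difference. The log2 fold change of Flt1 in Comb against Con was 0.53 (SE 0.40, edgeR adjusted p = 0.413), and it was -0.14 without that tumor. Kdr, the main signaling receptor for VEGF-A, was read at 20.4, 9.83 and 22.6 in Con and at 24.8, 28.2 and 12.6 in Comb, where Comb replicate 3 was the lowest. Its log2 fold change was 0.31 (SE 0.36, edgeR adjusted p = 0.580), with an interval from -0.48 to 1.10, and it was 0.59 without Comb replicate 3. The ratio of Flt1 to Kdr counts was 0.329 and 0.335 in Comb replicates 1 and 2 and 1.93 in Comb replicate 3, against 0.431 to 0.796 in Con.

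Tek had the fewest counts of the members, 2 to 8 per tumor in Con and SFIH. It passed the filter on low counts only through the 3 tumors in which it was high, PD replicate 2, Comb replicate 2 and Comb replicate 3. Its differences below are therefore a description. Where Tek is included in a count of members, it adds no support. It had 6, 36 and 3 counts in PD and 6, 21 and 85 in Comb. Counts of 3 or fewer, taken as the floor of detection, were found in SFIH replicate 2 and PD replicate 3. PD replicate 2, Comb replicate 2 and Comb replicate 3 were above every tumor without the antibody, and the other 3 tumors with the antibody were not. The log2 fold change of Tek in Comb against Con was 3.02 (SE 1.15), with an unadjusted p of 0.0270 and an edgeR adjusted p of 0.148. It was 1.47 without Comb replicate 3. In PD against Con it was 1.83, and -0.17 without PD replicate 2, so that 1 tumor set its direction. Over the 6 tumors with any anti-PD-1 against the 6 without, edgeR gave 2 of the 10 members an unadjusted p under 0.05, beside 18.7% of all genes. These were Tek, with a log2 fold change of 2.50 (adjusted p = 0.147), and Flt1, with 0.68 (adjusted p = 0.231). All 3 tumors that brought Tek past the filter had received the antibody, so its place in this count adds no support. Without Comb replicate 3 the values were 1.72 for Tek and 0.34 for Flt1, and without PD replicate 2 the value for Tek was 1.49. Angpt2, the ligand of TIE2, was read at 9.12, 11.6 and 14.8 TMM-scaled CPM in Con and at 12.0, 17.5 and 14.4 in Comb, with overlap. For Angpt2 the log2 fold change was 0.30 (SE 0.34, edgeR adjusted p = 0.567), with an interval from -0.44 to 1.05.

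The junction genes parted from each other. Pecam1 was read at 29.8, 24.7 and 34.0 TMM-scaled CPM in Con and at 30.7, 69.9 and 88.3 in Comb. The SFIH tumors gave 37.3, 39.3 and 34.8, and the PD tumors gave 27.0, 40.4 and 36.3. Comb replicates 2 and 3 were above all 9 tumors of the other groups, and Comb replicate 1 lay within the range of Con. The log2 fold change of Pecam1 in Comb against Con was 1.09 (SE 0.32), a 2.13-fold level, with an unadjusted p of 0.00635 and an edgeR adjusted p of 0.0801. It was 0.77 without Comb replicate 3 with an edgeR adjusted p of 0.195, and 1.42 without Comb replicate 1 with 0.00374, beside the 28.5% of all genes that passed there. Against PD it was 0.86 (edgeR adjusted p = 0.245) and against SFIH 0.76 (edgeR adjusted p = 0.237), or 0.54 and 0.43 without Comb replicate 3. The 3 SFIH tumors were above every Con tumor on this scale, the 1 member of 10 without overlap in that comparison beside 17.4% of all genes, and its log2 fold change was 0.33 (SE 0.32, edgeR adjusted p = 0.9998). In CPM without TMM, Pecam1 overlapped between SFIH and Con.

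Cdh5 was read at 21.1, 18.9 and 20.1 TMM-scaled CPM in Con and at 16.5, 21.1 and 21.1 in Comb. The groups overlapped, and the log2 fold change of Cdh5 was -0.03 (SE 0.25, edgeR adjusted p = 0.937), with an interval from -0.58 to 0.51. In CPM without TMM all 3 Comb tumors were under every Con tumor and the edgeR value was -0.31, so the order of the groups for Cdh5 depended on the scaling. The 5 genes most alike Cdh5 by the same measure were Akap12 (0.902), Galm (0.860), Zfp386 (0.853), Gpihbp1 (0.846), an endothelial lipase anchor, and Ccdc78 (0.846), and the same 5 were found without Comb replicate 3. The ratio of Pecam1 to Cdh5 counts, also chosen after the values were seen, was 1.42, 1.31 and 1.69 in Con and 1.86, 3.32 and 4.19 in Comb. All 3 Comb tumors were above every Con tumor (exact permutation test, two-sided, p = 0.1, the smallest possible). Over all tumors the ratio was higher with any anti-PD-1 than without, by 0.55 on the log2 scale (exact permutation test, two-sided, p = 0.0411), with 3 of 6 tumors above every tumor without it. These were 2 of 42 exact tests of 6 ratios, not adjusted. The tests of Vegfa to Vegfb are among the 42. That ratio was also lower with any SFIH than without, with a log2 difference of -0.39 (exact permutation test, two-sided, p = 0.0476).

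**Figure D3:**
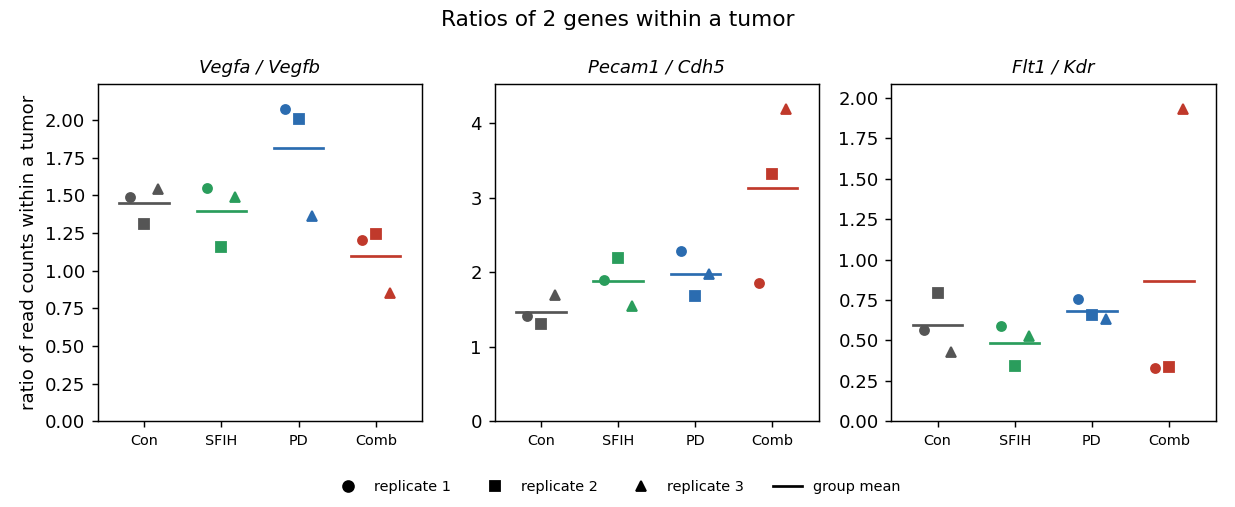
Ratios of read counts of a pair of genes within each tumor (vertical axis, from 0), by group; symbols mark the replicate and lines the group mean. For Vegfa to Vegfb the Comb tumors lie under every Con tumor, for Pecam1 to Cdh5 above every Con tumor, and for Flt1 to Kdr Comb replicate 3 stands alone at 1.93.

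Since Pecam1 is carried by leukocytes and platelets as well as by endothelium, marker lists were read in the same tumors. In bulk tissue, fewer cells of a type and less RNA per cell cannot be told apart. Of 10 macrophage markers, all 10 were higher in Comb than in Con and had an unadjusted edgeR p under 0.05, with a median log2 fold change of 2.97 beside -0.03 for all genes. In this comparison 18% of all genes were higher with such a p, and 11.4% without Comb replicate 3. Their summed level was 622 to 1124 CPM in Con, and 1198, 3747 and 11622 CPM in Comb replicates 1 to 3. Lyz2 (lysozyme) had a log2 fold change of 3.54 and Csf1r (the CSF-1 receptor) of 2.54, both with an edgeR adjusted p of 0.0665. Of 9 leukocyte markers, 9 were higher and 8 had an unadjusted p under 0.05, with Cd52 at 3.30 and Coro1a at 2.32. Without Comb replicate 3 the macrophage median was 1.73 and 9 of 10 had an unadjusted p under 0.05. For the leukocyte markers 6 of 9 then had one and the median moved from 1.54 to 0.84, with Cd52 at 1.75 and Coro1a at 1.43. Platelet markers had sums of 1.22 to 12.8 CPM in Comb and 3.54 to 4.01 CPM in Con. The highest sum was in Comb replicate 3, where Itga2b had 119 counts, against 2 to 42 counts of either tested marker in the other tumors, and neither of the 2 that were tested, Itga2b and Ppbp, had an unadjusted p under 0.05. Of the 5 platelet markers, 1 had no count in any tumor. The part of macrophages, other leukocytes and platelets in the Pecam1 result was not tested.

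**Figure D4:**
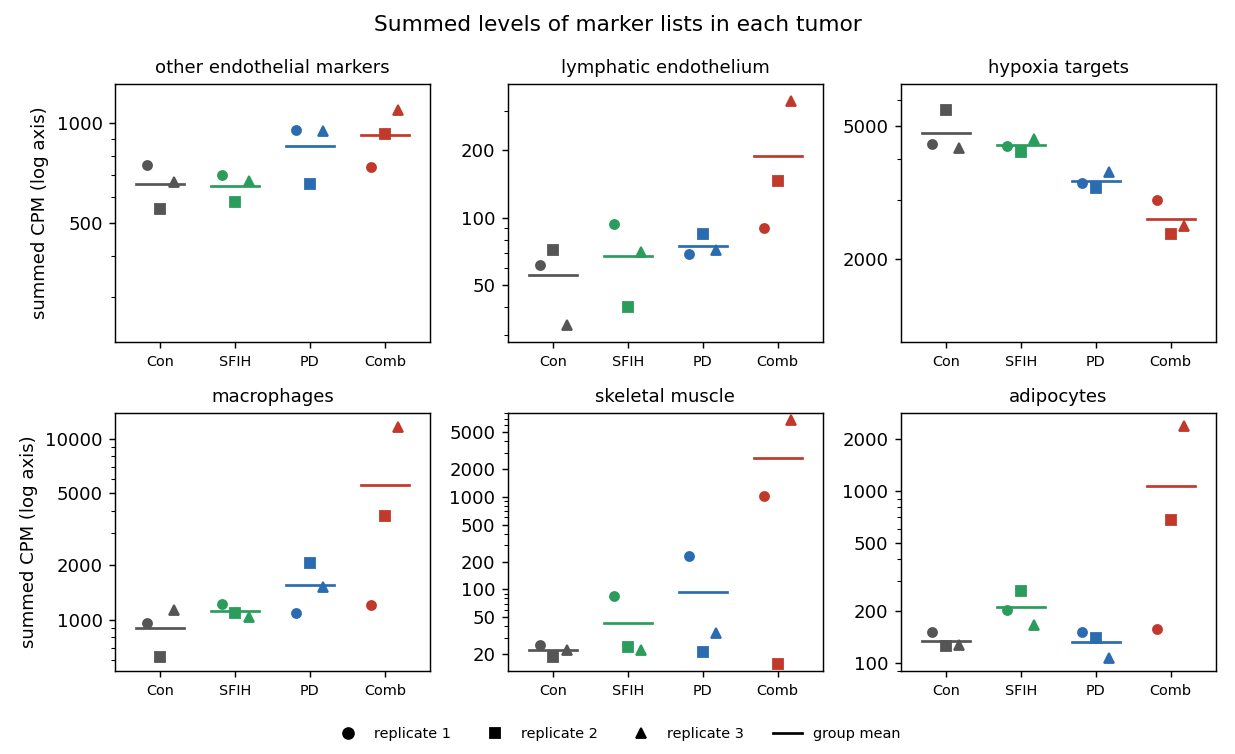
Summed CPM of 6 marker lists in each tumor (vertical log axes), by group; symbols mark the replicate and lines the group mean. Macrophage markers reach 11622 CPM in Comb replicate 3, while hypoxia targets lie between 2378 and 3007 CPM in Comb, under all Con tumors.

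Of the 25 other endothelial markers, 21 were tested, and 20 of these were higher in Comb than in Con, 12 of them with an unadjusted edgeR p under 0.05. The share of all genes was 18%. The median log2 fold change of the list was 0.97 for Comb against Con and 0.58 without Comb replicate 3, where 4 of the 21 had an unadjusted p under 0.05, beside 11.4% of all genes. None of the 21 passed the adjusted threshold. Of these genes 3, Clec14a, Selp and Cldn5, passed the filter on low counts through other groups only, being under its level in every Con tumor. These 3 are among the 12 and among the 4, where the other gene was Emcn. The counts of calls for this list are therefore a description only. Clec14a, a lectin of endothelial junctions, had 4, 2 and 5 counts in Con and 6, 64 and 107 in Comb, with an edgeR log2 fold change of 4.32 (adjusted p = 0.0671). Selp (P-selectin, also carried by platelets) had 4, 3 and 6 counts in Con and 23, 32 and 6 in Comb, with 2.44 (edgeR adjusted p = 0.0733). Both genes were tested only because of other groups, so their values are a description. In PD against Con, 18 of the 21 were higher and 4 had an unadjusted p under 0.05, beside 2.31% of all genes, with a median of 0.53. The summed level of the list was 553 to 750 CPM for Con, 658 to 954 CPM for PD and 739, 927 and 1097 CPM for Comb. One gene, Cd34, singled out after its values were seen, made up 49.1% to 80.3% of these sums. Without Cd34 the sums were 161 to 265 CPM for Con, 188 to 335 CPM for PD and 212, 288 and 331 CPM for Comb, which overlapped. Cdh5, at -0.03 between Con and Comb, lay under the median of these markers.

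Among 29 tested genes of the wider angiogenesis pathway, 18 were higher and 11 lower in Comb than in Con, with a median log2 fold change of 0.42, or 0.12 without Comb replicate 3. An unadjusted p under 0.05 was found for 4 higher and 4 lower genes, beside 18% and 7.3% of all genes, and for 2 and 2 without that tumor, beside 11.4% and 7.43%. Thbs2, an angiogenesis inhibitor of the thrombospondin family, had a log2 fold change of 1.52 (SE 0.49, edgeR adjusted p = 0.0960), and Calcrl, the receptor component for adrenomedullin, of 2.71 (SE 0.86, edgeR adjusted p = 0.104). Without Comb replicate 3 they were at 0.99 and 1.14. Of 12 pericyte and vascular smooth muscle genes, 8 were higher and 2 had an unadjusted p under 0.05, a share near the 18% of all genes. These were the smooth muscle myosin Myh11, at 3.74, and the actin Acta2, at 2.0, with edgeR adjusted p of 0.0665 and 0.0686. The median of this list was 0.46 and became -0.06 without Comb replicate 3. Of 6 lymphatic genes, 4 were tested, and 2 of these were under the filter's level in every Con tumor and passed through other groups only, so no count of calls is given for them. Pdpn (podoplanin, also found on fibroblasts) had a log2 fold change of 2.06 (edgeR adjusted p = 0.0665), or 1.32 without Comb replicate 3. Ccl21a was at 0, 0 and 3 counts in Con and at 2, 124 and 723 in Comb. It was at 395, 28 and 1 in SFIH and at 107, 8 and 44 in PD. Its reads may be shared with near-identical copies of the gene.

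**Figure D5:**
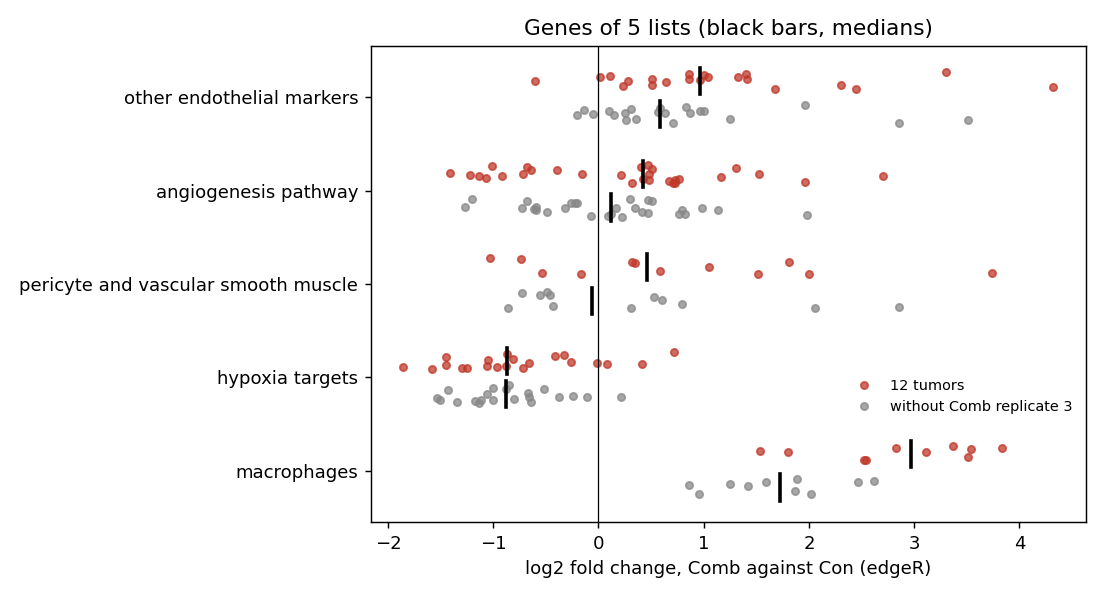
Log2 fold changes in Comb against Con (horizontal axis) of the tested genes of 5 lists, from edgeR; each point is a gene, red for 12 tumors and grey without Comb replicate 3, and black bars are medians. The median of the hypoxia targets is -0.87 with and without that tumor to within 0.01, while that of the macrophage markers moves from 2.97 to 1.73.

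Targets of the hypoxia-inducible factors, to which Vegfa is commonly assigned, were read next, with Vegfa itself left out of the list. Of 21 tested, 18 had lower and 3 had higher fitted levels in Comb than in Con, none passed the adjusted threshold, and 15 of the lower ones had an unadjusted edgeR p under 0.05, where 7.3% of all genes were lower with such a p. The median log2 fold change was -0.87, and without Comb replicate 3 it was -0.88, with 17 unadjusted calls, beside 7.43% of all genes, and 1 adjusted call. The mitophagy receptor Bnip3 was at -1.30 and the oxygen-sensing hydroxylase Egln1 at -1.25, both with an edgeR adjusted p of 0.0665. The summed level was 4435, 5604 and 4316 CPM for Con and 4185 to 4597 CPM for SFIH. It was 3376, 3252 and 3634 CPM for PD and 3007, 2378 and 2512 CPM for Comb. All 3 PD tumors were thus under every Con and SFIH tumor and above every Comb tumor. In PD against Con, 18 of the 21 targets were lower with 5 unadjusted calls, beside 1.68% of all genes, and a median of -0.35, and Vegfa stood at 0.21. The part of hypoxia in the Vegfa values was not tested.

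Markers of fat, muscle and skin were also higher in 1 or more Comb tumors, and in some tumors of other groups. Muscle markers summed to 227 CPM in PD replicate 1 and to 85.4 in SFIH replicate 1. Keratinocyte markers summed to 40.2 CPM in SFIH replicate 1, against 5.57 to 6.78 in Con. For adipocyte markers the sums were 167 to 261 CPM in SFIH and 107 to 151 in PD. Adipocyte markers summed to 125 to 151 CPM in Con and to 158, 674 and 2372 CPM in Comb, with Fabp4 at a log2 fold change of 3.70 and Lpl at 3.13, or 2.11 and 1.13 without Comb replicate 3. Skeletal muscle markers summed to 1028 CPM in Comb replicate 1, 15.6 in Comb replicate 2 and 6813 in Comb replicate 3, with Atp2a1 at 4.64 (1.97 without Comb replicate 3) and Pvalb at 0, 1 and 0 counts in Con and 315, 0 and 2444 in Comb. Keratinocyte markers, Krt10 and Perp among them, summed to 421 CPM in Comb replicate 3 and to 8.0 and 9.1 CPM in the other Comb tumors. Erythroid genes, Hba-a2 and Hbb-bt among them, whose reads may be shared with their paralogs, varied within every group, from 212 to 366 CPM in Con and from 210 to 1841 CPM in Comb. The part of these tissues in the values of the 10 genes was not tested.

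The remaining comparisons gave no adjusted call by edgeR. In SFIH against Con, 0 of the 10 members had an unadjusted p under 0.05, beside 2.25% of all genes, and the log2 fold changes ran from -0.25 to 0.37. DESeq2 called 0 members there (0.0297% of all genes) and limma-voom called 0 (0% of all genes). In PD against Con, 0 of the 10 had an unadjusted p under 0.05, beside 3.99% of all genes, and DESeq2 (0.0446% of all genes) and limma-voom (0.616% of all genes) again called 0. In Comb against PD, 2 of 10, Vegfa and Pecam1, had an unadjusted p under 0.05, beside 18% of all genes. DESeq2 called Vegfa (3.08% of all genes) and limma-voom called both (7.98% of all genes). In Comb against SFIH, 3 of 10 had an unadjusted p under 0.05, Vegfa, Tek and Pecam1, beside 19% of all genes, with a log2 fold change of 3.17 for Tek, or 1.61 without Comb replicate 3. Tek was under the filter's level in every SFIH tumor, so its place in counts for this comparison adds no support. DESeq2 called 0 members there (8.59% of all genes) and limma-voom called 2, Tek and Pecam1 (15% of all genes). For any anti-PD-1 against none DESeq2 called 1 member (9.28% of all genes), Tek, which passed the filter only through tumors with the antibody. There limma-voom called 2, Pgf at -1.65 and Vegfc at -2.04 (20.7%), and neither tool called Flt1. For any SFIH against none DESeq2 called 0 (1.99%) and limma-voom 2, Vegfa and Pecam1 (10.6%). For the interaction both called 0 members (0.00743% and 0% of all genes). These comparisons share their control or Comb tumors, so their values are not independent of each other.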

How the data were processed

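Single-end reads of 75 bases from QuantSeq 3′ mRNA-Seq libraries of 12 tumors were made on an Illumina NextSeq. The authors deposited raw read counts per gene symbol; the aligner, counter, genome build and annotation are not given in the sources used here. Counts near the 3′ end measure transcripts without regard to splicing and carry no molecular identifiers, so counting error is a lower limit. Columns were matched to the groups by the labels. Nothing in the labels says that replicates came from separate mice, so p-values measure the spread between these tumors.

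One fit of all 12 tumors was made with edgeR 4.0.16 in R 4.3.3 (TMM, filterByExpr by group, 13464 genes, quasi-likelihood F test, Benjamini-Hochberg adjustment over all genes tested, threshold 0.05, two-sided). Exact permutation tests used log2(CPM + 1). Of 3 tumors against 3, the smallest p is 0.1. DESeq2 1.42.0, limma-voom (limma 3.58.1), other normalizations and filters, a replicate block and omission of each tumor were tried. No pair of replicates was identical, and all differed by more than counting noise.

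The 10 members and 12 lists (160 symbols, all found) were chosen with earlier results of these data known. Genes named from a list are, since none passed the threshold, the 2 with the smallest p in Comb against Con, and for Vegfa and Cdh5 the 5 with the highest Spearman's rho among genes with a mean of 50 counts or more. RefSeq start regions were searched for motifs as letters on both strands.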

Additional observations from a re-analysis of the deposited data

How the results depend on the processing

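Of 699 alternative values of 31 fold changes of the 10 members, 664 kept their direction and side of the threshold, 27 passed it newly and 8 reversed. Members called numbered 0 with edgeR in all 8 comparisons. Some counts below include Tek, which passed the filter on low counts only through tumors in which it was high. In Comb against Con, DESeq2 and limma-voom each called 3, and omission of 1 tumor gave 0 to 4. In Comb against PD, DESeq2 called 1, limma-voom 2, and omission gave 0 to 2. In Comb against SFIH, limma-voom called 2 and omission gave 0 to 3. For any anti-PD-1, DESeq2 called 1, limma-voom 2, and omission gave 0 to 2, and for any SFIH limma-voom called 2 and omission gave 0 to 1. The calls under omission came without Comb replicate 1, where of 13856 genes 3943 passed in Comb against Con, 2100 in Comb against PD, 3118 in Comb against SFIH, 2370 for any anti-PD-1 and 281 for any SFIH. In Comb against Con 5 genes passed without Comb replicate 3. In Comb against Con DESeq2 called 1998 genes, limma-voom 2719, and edgeR with adjusted deviances, chosen after seeing the data, 463. The cause was not tested. Genes of the marker lists were refitted without Comb replicate 3 only.

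For Comb against Con, Flt1 was -0.0154 with limma-voom and -0.12 with DESeq2 without Comb replicate 3, also chosen after seeing the data, and between -0.14 and 0.80 with a tumor omitted. Cdh5 was -0.31 without TMM, 0.0289 with limma-voom, 0.0365 with a minimum mean of 50 counts, and between -0.106 and 0.0783 with a tumor omitted. Tek in PD against Con was between -0.17 and 2.34 with a tumor omitted. Without TMM the median of all genes in Comb against Con was -0.29 in place of -0.03. The minimum mean of 50 counts, and fits of the compared groups alone other than Comb against PD, gave no value for Tek.

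No clear pairing of tumors by replicate number was seen. Deviations of the 18 same-numbered pairs had a median correlation of -0.0021, 6 exceeded 0.1, and 2 of 12 tumors correlated best with their own number. The highest correlation was 0.361 among same-numbered pairs and 0.277 among the others. These values cannot settle whether tumors were paired, and the labels do not say. With a replicate block, 0 members were called in any comparison, and 2982 genes had an unadjusted p under 0.05 in Comb against Con against 3406 without it. Depth limits Tek most, at 2 to 8 counts in Con and SFIH.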
